A study of Mus musculus with 3 samples.

Results

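The cholesterol and fatty acid synthesis module comprised 31 genes taken by symbol from a fixed list of the pathway, out of 31053 genes in the deposited matrices. It held 18 enzymes of the route from acetyl-CoA to cholesterol (Acat2, Hmgcs1, Mvk, Pmvk, Mvd, Idi1, Fdps, Fdft1, Sqle, Lss, Cyp51, Tm7sf2, Msmo1, Nsdhl, Hsd17b7, Ebp, Sc5d and Dhcr7), 5 regulators or carriers (Insig1, Srebf1, Srebf2, Scap and Stard4) and 8 genes of fatty acid synthesis (Acly, Acaca, Fasn, Scd1, Scd2, Elovl6, Fads1 and Fads2). Single cells were obtained from L3 and L4 dorsal root ganglia (DRGs) of male C57BL/6J wild type mice at 13 weeks of age, in 1 library of untreated naïve mice, 1 library 7 days after spared nerve injury (SNI) and 1 library 14 days after SNI. The injury, in which branches of the sciatic nerve are cut while another is spared, was made in both hindlegs. The sources differ here: the text of the study names partial sciatic nerve ligation as well as spared nerve injury for these cells and female mice in its general methods, and the labels of the samples were followed. Each library was a pool of 8 DRGs from 2 mice, so that animals cannot be told apart and no condition has a replicate. The labels do not separate injured from spared cells, and values after injury cover both.

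Cells build cholesterol from acetyl-CoA through mevalonate, isoprenoid units, squalene and lanosterol, and most genes of the route are switched on together by the transcription factor SREBP2, encoded by Srebf2, when membrane sterol is scarce. SREBP1, encoded by Srebf1, mainly drives fatty acid synthesis, and both factors are escorted to their processing by SCAP and held back by INSIG proteins. Satellite glial cells (SGCs), which wrap the sensory neuron somata, and Schwann cells, which wrap the axons, both make large amounts of membrane, and myelin is exceptionally rich in cholesterol.

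The promoters of 4 members are printed because they show the letters the pathway is known for, and because their genes differed in the data: Hmgcs1 and Mvk among the enzymes lower after injury in SGC-like cells, Sc5d among those that differed least, and Fasn of the fatty acid branch, which barely differed. The sequences are from RefSeq on GRCm38.p6, read 5′ to 3′ on the strand of the gene, and end directly before the start of the gene annotated in RefSeq. Gene coordinates given further below are from GENCODE, whose start differs from that of RefSeq for Hmgcs1 and Sc5d. The Mvk stretch was shortened at its far end to bases that overlap no other gene. Capitals mark the sterol regulatory element TCACNCCAC, the NF-Y element CCAAT and the Sp1 element GGGCGG. On the other strand the NF-Y element reads ATTGG, and the Sp1 element is then written as CCGCCC. The stretches are chr13:119690101-119690350 on the + strand for Hmgcs1, chr5:114444061-114444268 on the + strand for Mvk, chr9:42264301-42264550 on the − strand for Sc5d and chr11:120824548-120824797 on the − strand for Fasn.
Hmgcs1: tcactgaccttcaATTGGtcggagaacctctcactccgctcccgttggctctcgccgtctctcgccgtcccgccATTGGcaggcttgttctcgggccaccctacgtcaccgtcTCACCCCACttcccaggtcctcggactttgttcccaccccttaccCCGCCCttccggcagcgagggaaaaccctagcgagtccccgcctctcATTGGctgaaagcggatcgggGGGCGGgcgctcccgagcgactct
Mvk: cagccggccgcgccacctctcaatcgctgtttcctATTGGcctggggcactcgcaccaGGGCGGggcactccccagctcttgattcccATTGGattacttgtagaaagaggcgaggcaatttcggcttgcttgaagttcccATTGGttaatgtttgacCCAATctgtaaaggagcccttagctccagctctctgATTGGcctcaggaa
Sc5d: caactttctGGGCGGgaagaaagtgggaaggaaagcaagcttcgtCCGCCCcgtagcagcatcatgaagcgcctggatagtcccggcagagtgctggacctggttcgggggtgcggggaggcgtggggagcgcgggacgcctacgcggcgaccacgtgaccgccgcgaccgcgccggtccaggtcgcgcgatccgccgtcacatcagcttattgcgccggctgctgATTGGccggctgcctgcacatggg
Fasn: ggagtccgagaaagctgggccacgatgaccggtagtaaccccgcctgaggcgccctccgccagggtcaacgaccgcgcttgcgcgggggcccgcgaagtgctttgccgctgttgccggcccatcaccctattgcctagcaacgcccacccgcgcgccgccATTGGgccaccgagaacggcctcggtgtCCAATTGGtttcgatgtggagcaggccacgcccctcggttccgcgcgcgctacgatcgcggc

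The Hmgcs1 stretch held the sterol element once, 137 bases before the start, with 3 NF-Y and 2 Sp1 elements. Mvk held 5 NF-Y elements and 1 Sp1 element, Sc5d held 1 NF-Y and 2 Sp1 elements, and Fasn held 3 NF-Y elements, 2 of them overlapping, and no Sp1 element. Over windows of 300 bases (250 before and 50 after the start, both strands), which the RefSeq table gave for 24 of the 31 members, CCAAT was present in 19 of the 24 and in 14 of the 15 sterol enzymes, against 41.1% of all 27025 genes in the table and 42.8% of the 8155 genes with at least 50 UMIs in SGC-like cells. GGGCGG was present in 20 of the 24, against 38.2% of all genes and 71.8% of those 8155 genes. TCACNCCAC was present in 1 member, Hmgcs1, against 1.44% of all genes. A match of letters is a description of the window and not a binding site. Fdps, Fdft1, Sqle, Stard4, Scd1, Scd2 and Fads1 had no window in the table.

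Values are counts of unique molecular identifiers (UMIs) from 3′ ends, summed over the cells of a class in a library and scaled to the total UMIs of that class in the library as counts per 1e+06 (CPM). A molecule gives 1 tag whatever its length, so levels were not divided by gene length. Intervals cover 95% counting error only and contain no variation between animals, and no test between conditions was possible with 1 library each. A gene was counted as higher or lower when its CPM differed by at least 1.5-fold, among genes with at least 50 UMIs over the 2 libraries compared. Of 11937 barcodes, 9572 cells were kept, 3123 naïve, 2650 from day 7 and 3799 from day 14, with median depths of 3059, 3972 and 4174 UMIs. Cell classes were rebuilt from marker genes by clustering without the members: SGC-like cells (746 naïve, 465 at day 7 and 672 at day 14), myelinating Schwann-like cells (1341, 1125 and 1615), non-myelinating Schwann-like cells (139, 87 and 181) and neuron-like cells (121, 76 and 136). Libraries shared between 1 and 5 barcodes in pairs.

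As a class, SGC-like cells held the highest level of both branches in every library. The 18 sterol enzymes summed to 4155 CPM in naïve SGC-like cells, followed by 2540 CPM in neuron-like cells, 1761 CPM in myelinating Schwann-like cells and 775 CPM in non-myelinating Schwann-like cells. Endothelial-like, mural-like, fibroblast-like and macrophage-like cells lay between 298 and 343 CPM in the naïve library, and their counting intervals overlapped. The same order of the first 4 classes was found at day 7 and at day 14, with the 4 counting intervals apart in each library. Not every SGC-like cluster, described below, lay above neuron-like cells, which were at 2673 CPM at day 7 and 2548 CPM at day 14. The largest, led by Ednrb and Egr3, was lower at both times (2027 and 1820 CPM), and the interferon cluster was lower at day 14 (1682 CPM). The cluster led by Hes5 and Aqp4 was higher in every library. The 8 fatty acid genes were ordered differently, with neuron-like cells below both Schwann classes: 9652 CPM in SGC-like, 5784 CPM in myelinating Schwann-like, 4687 CPM in non-myelinating Schwann-like and 3689 CPM in neuron-like cells of the naïve library. Fibroblast-like cells came next at 1654 CPM, and mural-like cells were lowest at 453 CPM.

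**Figure D1:**
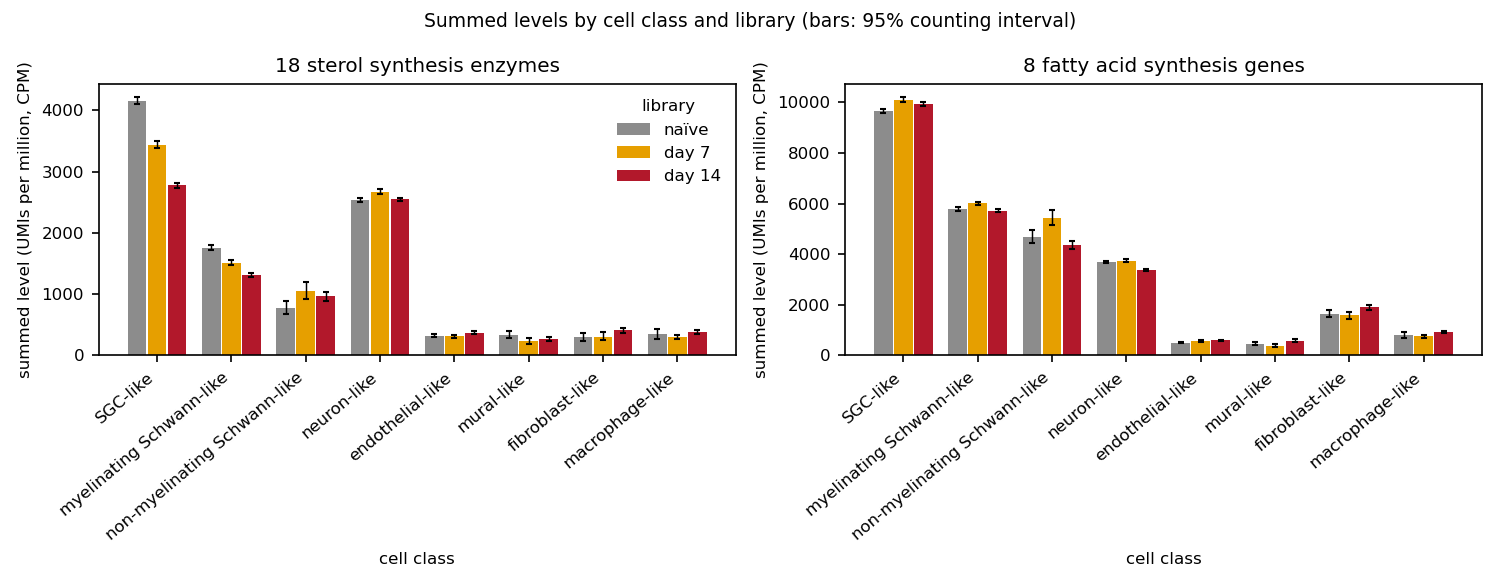
Summed level in CPM (vertical axis) of the 18 sterol synthesis enzymes (left) and the 8 fatty acid synthesis genes (right) in 8 cell classes, with 1 bar for each of the naïve, day 7 and day 14 libraries and 95% counting intervals. The sterol bars of SGC-like cells step down from 4155 to 3436 and 2776, whereas their fatty acid bars lie between 9652 and 10099.6.

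SGC-like cells supplied 41.0% of all sterol enzyme UMIs of the kept naïve cells, 34.4% at day 7 and 25.8% at day 14, while they supplied 24.0%, 20.6% and 17.3% of all UMIs. Neuron-like cells supplied 42.2%, 41.9% and 54.1% of the sterol enzyme UMIs, with 40.5%, 32.3% and 39.5% of all UMIs. In a pool of dissociated ganglia such shares depend on how many cells of each class were recovered, and fewer cells and less RNA per cell cannot be told apart in them, so that the results below are given within a class.

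In SGC-like cells the sterol enzymes were lower 7 days after injury and lower again 14 days after injury. Their sum was 4155 CPM in the naïve library, 3436 CPM at day 7 and 2776 CPM at day 14. These values were 17.3% and 33.2% below naïve, or −0.27 (interval −0.31 to −0.24) and −0.58 (interval −0.61 to −0.55) as log2 ratios. All 18 enzymes lay below naïve at day 7 and all 18 at day 14, where 51.9% and 48.8% of all genes tested did. The median log2 ratio of the 18 was −0.30 and −0.70, beside −0.01 and 0.01 over all genes tested. In 17 of the 18 the naïve library was highest and the day 14 library lowest. The exception was Lss, lanosterol synthase, at 51.0, 43.8 and 48.6 CPM.

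No member reached 1.5-fold at day 7 in SGC-like cells, where 2.28% of 10040 genes tested were higher and 2.48% were lower by that measure. At day 14, 11 of the 31 members were lower and 0 were higher, against backgrounds of 3.38% lower and 4.73% higher among 10359 genes. The 11 were all sterol enzymes: Acat2, Mvk, Pmvk, Mvd, Idi1, Fdps, Fdft1, Cyp51, Tm7sf2, Msmo1 and Dhcr7. Acat2, which joins the first acetyl-CoA units, was just past the boundary at 41.1, 35.1 and 27.4 CPM.

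Hmgcs1 (chr13:119690379-119708260, + strand), which makes HMG-CoA, was the most abundant sterol enzyme of SGC-like cells, with 1229 CPM in naïve, 1128 CPM at day 7 and 918 CPM at day 14. The day 14 library was lowest, with a log2 ratio of −0.42 (interval −0.47 to −0.37), and the 3 counting intervals did not overlap. Without Hmgcs1 the other enzymes summed to 2927, 2309 and 1858 CPM, which is −0.34 and −0.66 on the log2 scale, so that the difference did not rest on this gene alone. The next enzymes phosphorylate and decarboxylate mevalonate. Mvk was at 43.7, 37.1 and 26.5 CPM, Pmvk at 118, 97.7 and 64.1 CPM, and Mvd at 50.02, 37.8 and 27.9 CPM. All were highest in the naïve library and lowest at day 14, and Pmvk differed most of the 3 with −0.88 (interval −1.07 to −0.69).

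The isoprenoid steps follow. Idi1 (chr13:8885501-8892451, + strand), the isomerase that provides the second isoprenoid building block, was at 290 CPM in naïve, 230 CPM at day 7 and 156 CPM at day 14, a log2 ratio at day 14 of −0.89 (interval −1.02 to −0.77) and the lowest of all 31 members. Fdps, which condenses the units to farnesyl diphosphate, was at 245, 174 and 144 CPM, and Fdft1, squalene synthase, at 211, 165 and 122 CPM. Fdps had the lowest ratio of the members at day 7, −0.49 (interval −0.63 to −0.36). Sqle, squalene epoxidase, which opens the oxygen-dependent part of the route, was at 326, 258 and 222 CPM, with −0.55 (interval −0.66 to −0.45) at day 14.

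The late enzymes, which trim lanosterol to cholesterol, were lower by unequal amounts. Msmo1 (chr8:64718139-64733792, − strand), a sterol C4-methyl oxidase, was at 614 CPM in naïve, 451 CPM at day 7 and 364 CPM at day 14, with −0.45 (interval −0.53 to −0.36) and −0.75 (interval −0.84 to −0.67) as log2 ratios. Cyp51, the lanosterol demethylase, was at 248, 194 and 153 CPM, and Dhcr7, the last reductase of the route, was at 120, 113 and 73.7 CPM. For Dhcr7 most of the difference lay between day 7 and day 14, and the naïve and day 7 counting intervals overlapped. Sc5d, the sterol desaturase whose promoter is printed above, was at 264, 229 and 217 CPM and had the second smallest difference of the 18 at day 14 with −0.28 (interval −0.40 to −0.17). The remaining late enzymes Nsdhl, Hsd17b7, Ebp and Tm7sf2 had log2 ratios between −0.85 and −0.48 at day 14.

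**Figure D2:**
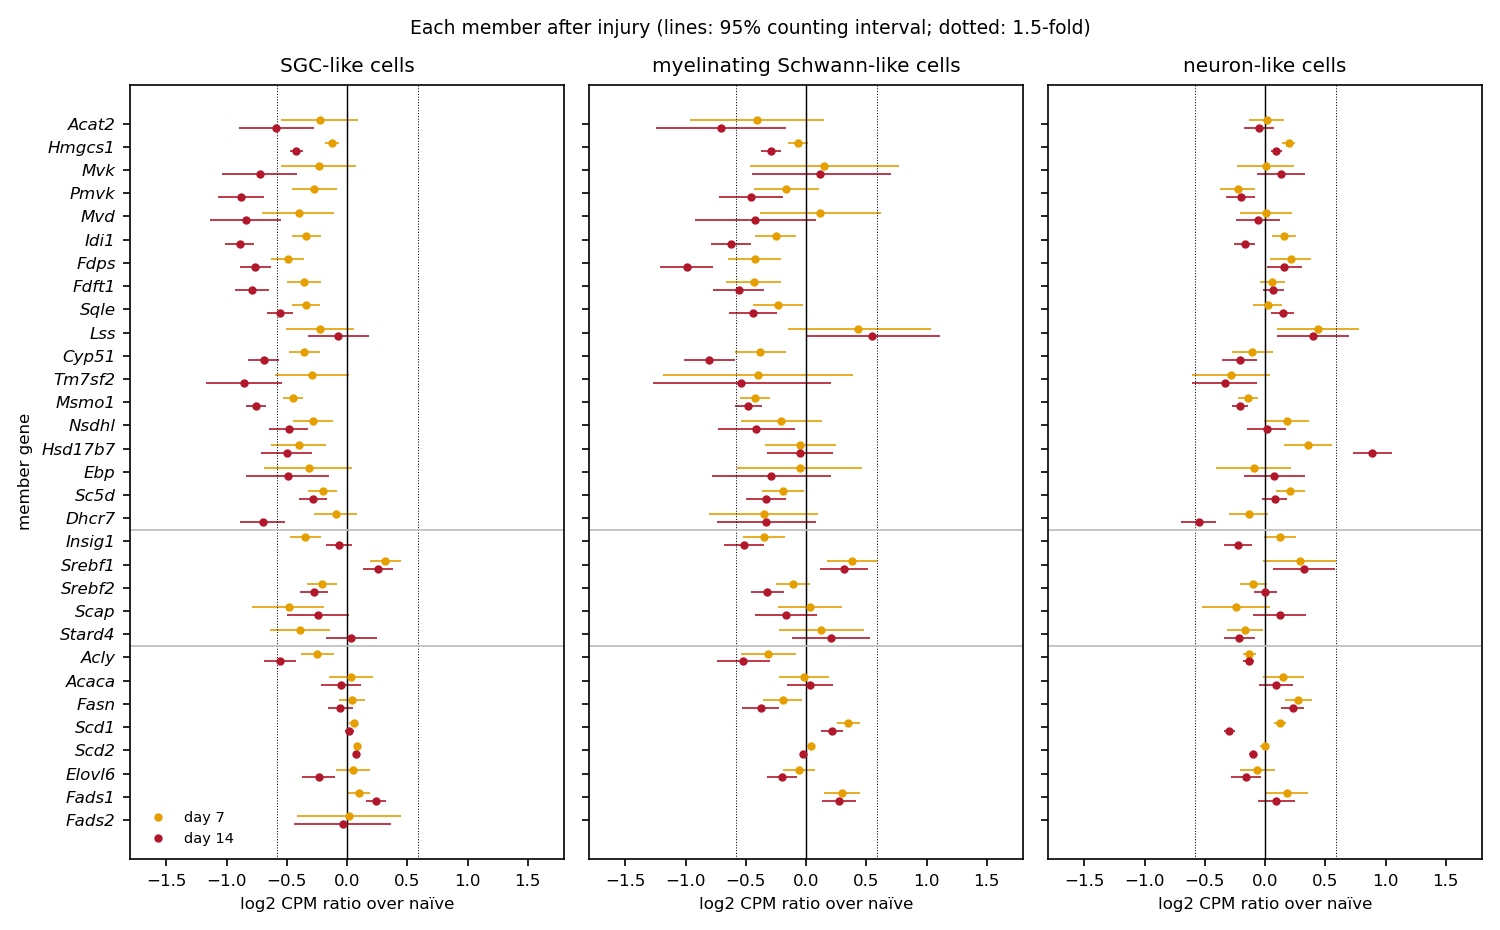
Log2 ratio of CPM over the naïve library (horizontal axis) for each member (vertical axis) at day 7 and day 14, in SGC-like, myelinating Schwann-like and neuron-like cells, with 95% counting intervals; dotted lines mark 1.5-fold, and grey lines separate sterol enzymes, regulators and fatty acid genes. In SGC-like cells all 18 sterol enzymes lie left of 0 at both times, in neuron-like cells 8 of 18 do at day 14.

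Of the 5 regulators, 4 (Insig1, Srebf2, Scap and Stard4) had intervals below 0 at day 7, as 12 of the 18 enzymes did, and 1 (Srebf2) did at day 14, as 17 of the 18 enzymes did. Their median log2 ratio was −0.35 at day 7 and −0.07 at day 14. Srebf2, whose product drives the sterol enzymes, was at 247 CPM in naïve, 214 CPM at day 7 and 204 CPM at day 14, and its day 14 log2 ratio of −0.27 (interval −0.39 to −0.16) was smaller than that of 17 of the 18 enzymes. Srebf1 (chr11:60199089-60222581, − strand) was instead higher after injury, at 192, 239 and 229 CPM, with 0.32 (interval 0.19 to 0.45) at day 7 and 0.26 (interval 0.13 to 0.38) at day 14. Insig1, itself a target of SREBP and an anchor that keeps SCAP in the endoplasmic reticulum, was at 259, 204 and 247 CPM, lowest at day 7 and close to naïve at day 14. Stard4, a carrier of cholesterol between membranes, was also lowest at day 7 with 70.5, 53.7 and 72.3 CPM, and so was Scap at 51.2, 36.6 and 43.3 CPM.

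The fatty acid branch differed little in SGC-like cells. Its sum was 9652 CPM in naïve, 10099.6 CPM at day 7 and 9946 CPM at day 14, and the log2 ratios were 0.07 (interval 0.05 to 0.08) and 0.04 (interval 0.03 to 0.06). The sterol log2 ratio minus the fatty acid log2 ratio was −0.34 (interval −0.38 to −0.30) at day 7 and −0.63 (interval −0.66 to −0.59) at day 14. Scd2 (chr19:44293674-44306864, + strand) and Scd1 (chr19:44394455-44407879, − strand), desaturases that introduce the first double bond of saturated fatty acids, made up most of the sum. Scd2 was the most abundant member with 6029, 6371 and 6335 CPM, and Scd1 was second with 2399, 2494 and 2430 CPM. Reads of such related genes may be shared, and how the authors' counting split them was not given in the sources used here.

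Without Scd1 and Scd2 the branch summed to 1224, 1234 and 1181 CPM. Fasn, fatty acid synthase, was at 295, 304 and 284 CPM, and Acaca, which makes its substrate malonyl-CoA, was at 112, 114 and 108 CPM, all with intervals of the ratio that included 0. Acly, which releases cytosolic acetyl-CoA from citrate and so feeds both branches, was at 220, 185 and 149 CPM, with a day 14 log2 ratio of −0.56 (interval −0.69 to −0.43). Besides Acly, the interval lay below 0 at day 14 for Elovl6, an elongase, at 187, 193 and 159 CPM. Fads1 (chr19:10182888-10196877, + strand), a desaturase of polyunsaturated fatty acids, was higher after injury at 390, 417 and 461 CPM, with 0.24 (interval 0.16 to 0.33) at day 14. Fads2 was the lowest member, at 20.2, 20.5 and 19.7 CPM.

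The lower sterol level was present in each of the 3 clusters of SGC-like cells. In the cluster led by Ednrb and Egr3 (389, 290 and 487 cells) the sum was 2647, 2027 and 1820 CPM, and all 18 enzymes were below naïve at both times. In the cluster led by Hes5 and Aqp4 (193, 137 and 154 cells) the level was higher throughout, at 6108, 5366 and 4807 CPM, with 16 of 18 enzymes below naïve at day 7 and 17 of 18 at day 14. In the cluster led by interferon-induced genes such as Cxcl10 and Isg15 (164, 38 and 31 cells) it was 3736, 2818 and 1682 CPM, with 12 of 14 and 14 of 14 enzymes that passed the UMI minimum below naïve. Srebf1 was above naïve in all 3 clusters at both times.

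**Figure D3:**
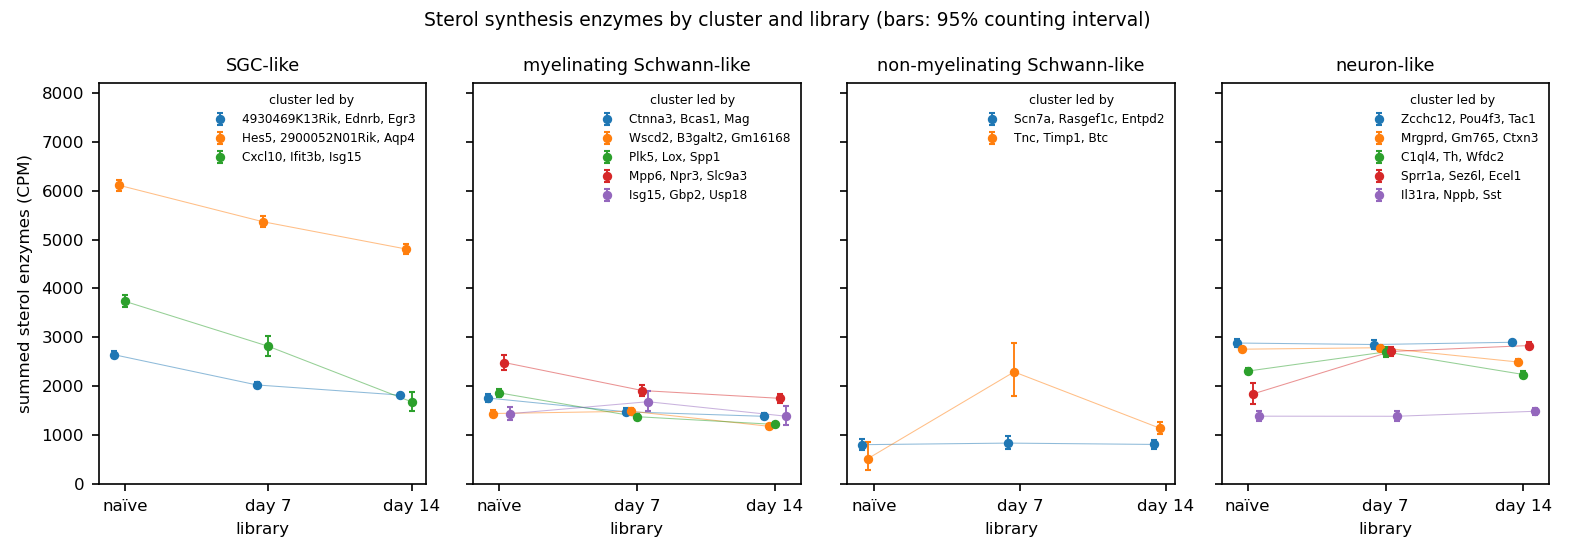
Summed sterol synthesis enzymes in CPM (vertical axis) in the naïve, day 7 and day 14 libraries (horizontal axis) for every cluster of the 4 classes, 1 colour per cluster named by its leading genes, with 95% counting intervals. All 3 SGC-like clusters step down, the highest from 6108 to 4807, whereas the neuron-like cluster led by Sprr1a lies at 1844 in naïve and 2833 at day 14.

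Per cell, the median sterol level of SGC-like cells was 3018 CPM in naïve, 2338 CPM at day 7 and 1739 CPM at day 14, and the median fatty acid level was 9082, 9646 and 9570 CPM. Because cells of the injured libraries were deeper (median 7187 and 6896 UMIs against 5218 in naïve SGC-like cells), shares of cells with a UMI were also taken after thinning each cell to 2300 UMIs. Msmo1 was then detected in 64.6%, 53.7% and 46.2% of 675, 455 and 653 SGC-like cells (77.7%, 78.7% and 73.5% unthinned), Fdps in 36.3%, 28.0% and 23.5% (58.0%, 56.3% and 51.9% unthinned) and Srebf1 in 36.1%, 44.0% and 41.2% (63.0%, 80.2% and 76.6% unthinned). Endothelial-like cells, taken as a class with little of the pathway, had Msmo1 in 8.23%, 6.70% and 9.22% and Fdps in 7.39%, 5.95% and 8.33% of thinned cells. After thinning, the order naïve, day 7, day 14 was thus seen in the share of SGC-like cells with Msmo1 or Fdps. Before thinning, the Msmo1 share at day 7 was not below naïve. Lss did not follow the order, with thinned shares of 9.22%, 8.02% and 8.31%.

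**Figure D4:**
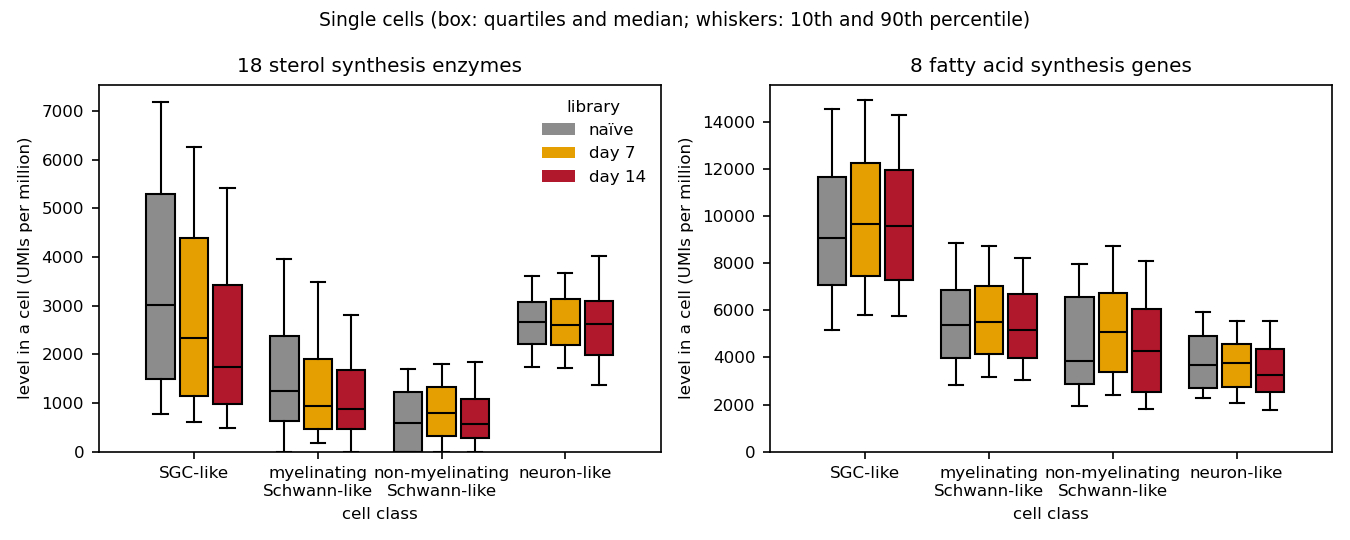
Level in a single cell in CPM (vertical axis) of the 18 sterol synthesis enzymes (left) and the 8 fatty acid synthesis genes (right) in the 4 classes (horizontal axis) and 3 libraries; boxes show quartiles and median, whiskers the 10th and 90th percentile. Median sterol levels of SGC-like cells are 3018, 2338 and 1739, and those of neuron-like cells 2661, 2597 and 2625.

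Other measures moved with the libraries in SGC-like cells. The median share of mitochondrial UMIs was 13.3% in naïve cells, 15.1% at day 7 and 15.6% at day 14. In the same clusters restricted to cells with at most 15% mitochondrial UMIs (513, 230 and 279 cells), the log2 ratios of the sterol sum were −0.35 and −0.49. A filter of 1000 genes and 10% mitochondrial UMIs left 123, 15 and 11 SGC-like cells, and the ratios were 0.02 and −1.29. Clock genes also differed, Dbp being at 23.03, 53.2 and 71.2 CPM, Nr1d1 at 42.9, 86.6 and 105.6 CPM and Arntl at 51.2, 28.4 and 23.7 CPM. Dbp was at 6.36, 5.68 and 6.96 CPM in neuron-like cells. These clock genes were chosen after their values were seen, and the part of either measure in the sterol result was not tested. Myelinating Schwann markers summed to 2497, 2587 and 2625 CPM in SGC-like cells, with none of the 8 at 0 in any library, and neuron markers to 113, 140 and 173 CPM.

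Myelinating Schwann-like cells showed the same direction at a smaller size. The sterol enzymes summed to 1761 CPM in naïve, 1516 CPM at day 7 and 1311 CPM at day 14, which is 13.9% and 25.6% below naïve, or −0.22 (interval −0.26 to −0.17) and −0.43 (interval −0.47 to −0.38) on the log2 scale. The median mitochondrial share of the class was 9.24%, 9.79% and 10.9%, and in cells with at most 15% mitochondrial UMIs the ratios were −0.18 and −0.39. The difference between the SGC-like and the myelinating Schwann-like log2 ratio at day 14 was −0.16 (interval −0.21 to −0.10). Of the 18 enzymes, 15 were below naïve at day 7 and 16 at day 14, with medians of −0.22 and −0.43 beside 0.00 and 0.01 over all genes tested. No member of 30 reached 1.5-fold at day 7, against 2.27% higher and 2.13% lower of 9517 genes. At day 14, 4 members were lower and 0 higher, against 2.86% lower and 3.91% higher of 9882 genes.

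The 4 were Acat2, Idi1, Fdps and Cyp51, and all 4 were also lower in SGC-like cells. Fdps was at 95.5 CPM in naïve, 71.1 CPM at day 7 and 48.1 CPM at day 14, the lowest ratio of the class with −0.99 (interval −1.21 to −0.77). Hmgcs1 was at 562, 535 and 459 CPM and Msmo1 at 300.4, 224 and 216 CPM, both lowest at day 14. In 14 of the 18 the naïve library was highest and the day 14 library lowest, the others being Mvk, Mvd, Lss and Dhcr7. Lss was at 10.6, 14.3 and 15.4 CPM from 41, 66 and 101 UMIs, lowest in naïve. Among the clusters, the sum was below naïve at day 14 in all 5, and at day 7 in 3: it was 1443, 1488 and 1181 CPM in the cluster led by Wscd2 and 1439, 1684 and 1388 CPM in the interferon cluster.

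Srebf1 was higher after injury here too, at 82.4, 107 and 102 CPM, with 0.38 (interval 0.18 to 0.59) and 0.31 (interval 0.12 to 0.51), while Srebf2 was at 202, 187 and 162 CPM and Insig1 at 140, 110 and 97.5 CPM. The fatty acid genes summed to 5784, 6009 and 5713 CPM, most of it Scd2 with 4665, 4792 and 4586 CPM. Scd1 was higher after injury, at 391, 498 and 454 CPM, and so was Fads1 at 162, 199 and 196 CPM. Fasn was lower at 162, 142 and 125 CPM, and Elovl6 was at 231, 222 and 201 CPM. Myelin markers summed to 76511, 74264 and 70250 CPM in this class, and erythroid markers, none of the 3 at 0 in any library, to 42.0, 40.2 and 300.01 CPM. Their part in the result was not tested.

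In neuron-like cells the sum of the sterol enzymes was not lower. It was 2540 CPM in naïve, 2673 CPM at day 7 and 2548 CPM at day 14, with log2 ratios of 0.07 (interval 0.04 to 0.10) and 0.00 (interval −0.02 to 0.03). The SGC-like ratio minus the neuron-like ratio was −0.35 (interval −0.39 to −0.31) at day 7 and −0.59 (interval −0.63 to −0.55) at day 14. At day 7, 6 of 18 enzymes lay below naïve and at day 14 8 of 18. Hmgcs1 was at 716, 819 and 763 CPM and Msmo1 at 350, 317 and 303 CPM, so the most abundant enzymes differed in opposite directions. Without Hmgcs1 the log2 ratios of the sum were 0.02 (interval −0.01 to 0.06) at day 7 and −0.03 (interval −0.06 to −0.002) at day 14. The higher sum at day 7 thus rested largely on this gene.

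No member of 30 reached 1.5-fold at day 7, against 6.76% higher and 3.55% lower of 11068 genes, and at day 14 1 was higher and 0 were lower, against 11.4% higher and 3.73% lower of 11812 genes. The 1 was Hsd17b7, a reductase of the late pathway, at 50.4, 64.6 and 93.4 CPM, with 0.89 (interval 0.73 to 1.05). It was at 29.2, 121 and 190 CPM in the cluster led by Sprr1a, a gene of axotomized neurons, from 2, 16 and 29 cells, with 5 UMIs in the naïve library. The sterol sum of that cluster was 1844, 2712 and 2833 CPM, and it was 2884, 2853 and 2899 CPM in the cluster led by Tac1. In the cluster led by Mrgprd it was 2758, 2788 and 2496 CPM, with a day 14 log2 ratio of −0.14 (interval −0.18 to −0.10) and 14 of 18 enzymes below naïve. The class sum thus combines clusters that differed in direction at day 14 and whose numbers of cells differed between libraries. Dhcr7 was lower in the class at 89.9, 81.8 and 61.4 CPM, and at 110, 106 and 84.6 CPM within the cluster led by Mrgprd.

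Acly was higher in neuron-like cells than in the glial classes, at 707, 646 and 642 CPM. Scd2 was at 1763, 1759 and 1643 CPM and Scd1 at 798, 869 and 649 CPM. Most Scd1 UMIs came from the cluster led by Mrgprd, a marker of non-peptidergic nociceptors, which held 37, 22 and 24 cells and 1330, 1496 and 1206 CPM. Within the cluster led by Tac1 it was 418, 498 and 492 CPM, so the lower class value at day 14 was not seen there.

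Non-myelinating Schwann-like cells gave few UMIs for the sterol enzymes, 204, 227 and 625, and their result depended on how the class was drawn. The sum was 775 CPM in naïve, 1053 CPM at day 7 and 962 CPM at day 14, higher by 0.44 (interval 0.16 to 0.72) and 0.31 (interval 0.08 to 0.55) on the log2 scale. In the main cluster, led by Scn7a, it was 806, 838 and 811 CPM, and in the small cluster led by Tnc and Timp1 (9, 7 and 47 cells) it was 523, 2294 and 1140 CPM. When the class was drawn cell by cell from its markers, without clusters, the ratios were −0.16 and −0.34, and with the filter of 1000 genes and 10% mitochondrial UMIs they were −0.45 and −0.38. The median mitochondrial share of the class was 9.88%, 12.7% and 12.4%, and with at most 15% mitochondrial UMIs the ratios were 0.20 (interval −0.13 to 0.53) and 0.41 (interval 0.16 to 0.66). Fibroblast markers in the class summed to 2359, 2509 and 3948 CPM, and their part in these values was not tested.

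In that class 10 members passed the UMI minimum at day 7, of which 2 (Msmo1 and Insig1) were higher and 1 (Acly) lower, against 4.02% higher and 6.54% lower of 1790 genes. At day 14, 16 passed, of which 3 (Hmgcs1, Sqle and Sc5d) were higher and 2 (Acly and Fasn) lower, against 10.6% higher and 10.3% lower of 3537 genes. Hmgcs1 was at 163, 199 and 253 CPM from 43, 43 and 164 UMIs. Acly was the only member of any of the 4 classes past 1.5-fold in the same direction at both times, with 129, 83.5 and 78.5 CPM from 34, 18 and 51 UMIs, and its day 7 interval of −1.54 to 0.24 on the log2 scale included 0. Scd2, Scd1, Fads1, Fasn and Srebf1 were the most abundant members: Scd2 was at 3133, 3803 and 3063 CPM, Scd1 at 581, 682 and 551 CPM, Fads1 at 311, 357 and 306 CPM, Fasn at 334, 301 and 179 CPM, and Srebf1 at 235, 274 and 188 CPM. Tm7sf2 had 0 UMIs at day 14, which allows up to 4.62 CPM.

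**Figure D5:**
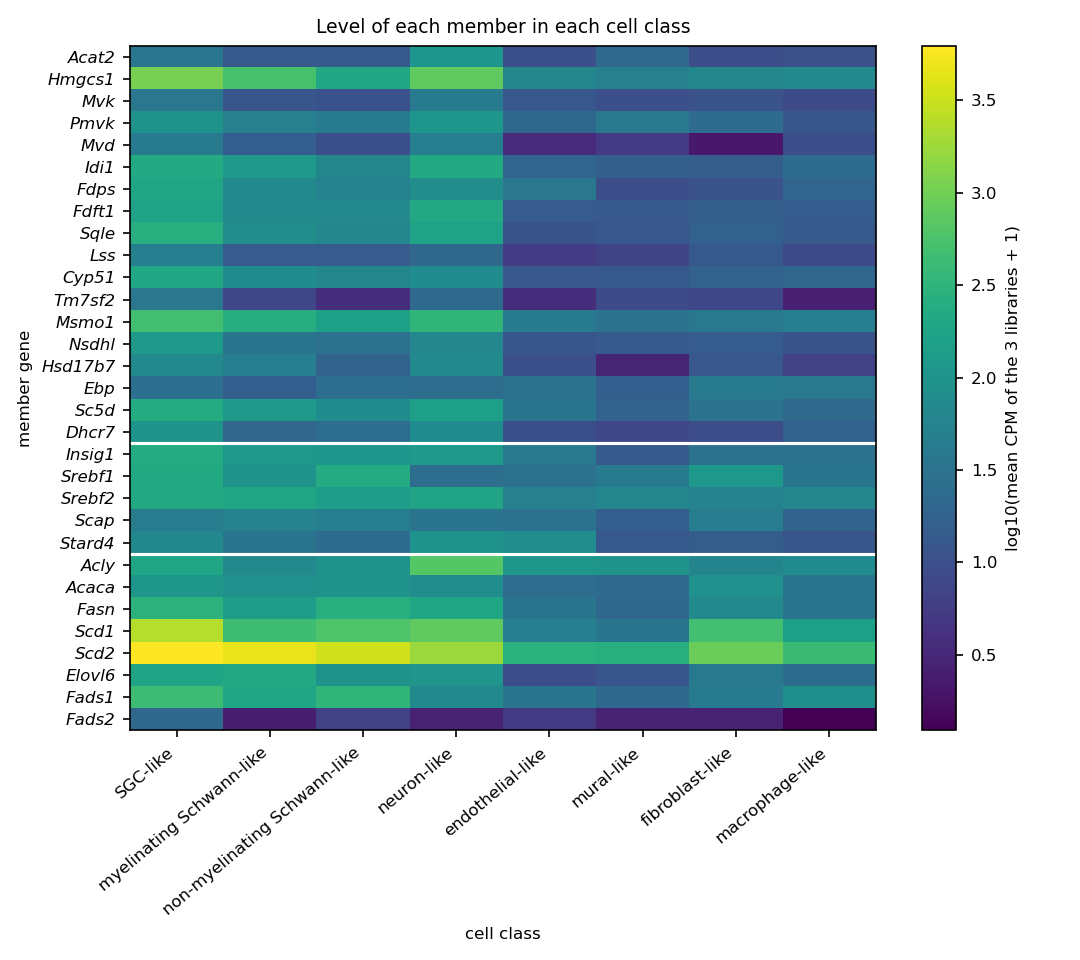
Level of each of the 31 members (vertical axis) in 8 cell classes (horizontal axis) as the log10 of the mean CPM over the 3 libraries plus 1; white lines separate sterol enzymes, regulators and fatty acid genes. Scd2 is the brightest row in every class, and Fads2 is visible chiefly in SGC-like cells, where it was at 20.2, 20.5 and 19.7 CPM.

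Other genes of lipid metabolism were compared in 6 lists around the pathway. In SGC-like cells no gene of 8 isoprenoid branch genes, of 7 SREBP processing genes, of 17 fatty acid supply genes or of 8 myelin sphingolipid genes was past 1.5-fold at either time. The isoprenoid branch, which uses the same intermediates for ubiquinone, dolichol and protein prenylation, had 4 of 8 genes below naïve at day 14 and a median log2 ratio of −0.08, beside 18 of 18 and −0.70 for the sterol enzymes. Of 7 efflux and storage genes, Mylip, the ligase that degrades lipoprotein receptors, was higher at day 14 (81.0, 93.2 and 147 CPM). Of 12 fatty acid oxidation genes, Ehhadh, a peroxisomal enzyme, was lower at both times (8.14, 5.19 and 5.25 CPM). Its log2 ratios were −0.65 and −0.63, at a low level where counting error is large, and its intervals are not given here. Among all genes tested in the class, 2.48% were lower at day 7, and 3.38% were lower and 4.73% higher at day 14.

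In myelinating Schwann-like cells Mylip was also higher at day 14 (95.5, 127 and 146 CPM), Pdss2 and Pggt1b of the isoprenoid branch were higher at day 7 and Pdss1 at day 14, and no gene of the other 4 lists was past 1.5-fold. In neuron-like cells Mylip (3.18, 5.53 and 7.28 CPM) was higher at both times. Pggt1b, Abca1 and Ugt8a were higher there at day 7 alone and Pdss1 at day 14 alone, and Cyp46a1, which turns over cholesterol in neurons, was lower at day 14. In non-myelinating Schwann-like cells no gene of the lists with enough UMIs was past 1.5-fold at day 7, and at day 14 Mbtps1, Abca1, Mylip and Elovl1 were higher and Ggps1 lower. There 3 to 8 genes of each list were tested at day 14, beside shares of 10.6% higher and 10.3% lower over all genes tested. In neuron-like cells these shares were 6.76% higher at day 7, and 11.4% higher and 3.73% lower at day 14. In myelinating Schwann-like cells 2.27% of all genes tested were higher at day 7 and 3.91% at day 14. The named genes are therefore not a result about the lists.

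In GENCODE vM21 on mm10, 16 of the 31 members overlapped another annotated gene, 9 of them on the same strand. Rai1 overlaps Srebf1 from the opposite strand. Whether the authors' counting used strand was not given in the sources used here, and neither was how reads of such pairs were assigned.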

How the data were processed

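UMI counts per gene and cell were deposited by the authors as whole numbers without normalization, 1 sparse matrix for each library (10x Chromium 3′ v3). The submitters' processing notes name Cell Ranger 3.0.2 and mm10. The annotation, the use of strand and the treatment of reads shared between genes were not given in the sources used here. The naïve matrix held 23.1, the day 7 matrix 22.3 and the day 14 matrix 36.6 UMIs times 1e+06, and no column of values was left unused (0).

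Cells needed 500 genes or more and a mitochondrial share of UMIs no higher than 20%, and Scrublet in scanpy 1.11.5 (expected rate 5%) marked 90 of 9662 as doublets (0.931%), which were removed. After scaling each cell to 10000 counts, 2000 variable genes, without 97 genes of the members and lists, were reduced to 30 components, joined by 15 nearest neighbours and partitioned by leidenalg 0.10.2 (resolution 1). A marker counted as present when found in 20% or more of the cluster and 1.5-fold above the remaining cells. For each cluster the class with the highest share of its markers present was taken first, an order set after the clusters were seen. The cluster received that name only with 3 or more of those markers present. The cluster led by Serpinb1a, Asns and Sprr1a stayed unnamed because its first class was erythroid, with 2 markers. The unnamed cells were 137, 223 and 121. With the stricter cell filter, a cluster of 61 cells with 5 macrophage markers was also left unnamed, because a different class had more markers among its top genes. The authors' own names for the cells may be different.

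Counts were summed per class and library. Exact Poisson intervals for sums, Clopper-Pearson for shares and the exact conditional binomial interval for ratios were taken with scipy 1.17.1, and differences between log2 ratios have a Wald interval. All are at 95%, and a count of 0 is given the limit of 3 counts. Thinning gives the expected share of cells over draws of 2300 UMIs. The script was tested on simulated data.

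All 31 members are accounted for. Those detailed in each class are the 5 with the highest mean CPM among members with at least 50 UMIs and any past 1.5-fold in the same direction at both times. Members outside this rule were named after their values were seen. A result of the other lists is not reported here. The members, the lists and the comparisons were chosen with earlier results of these data known. The alternatives were a stricter cell filter, other resolutions, doublets kept, classes drawn cell by cell, median-of-ratios scaling, the mean of single-cell CPM and a minimum of 20 UMIs. Added after seeing the data were the omission of the 2 interferon clusters, CPM without mitochondrial and marker genes, and a limit of 15% mitochondrial UMIs.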

Additional observations from a re-analysis of the deposited data

Results flagged for a closer look

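The sums differed in direction between cell classes with counting intervals on opposite sides of 0. With 1 library for each condition, these differences between classes were not tested, and all classes of a condition come from the same library.

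The sterol enzymes at day 7 had log2 ratios over naïve of −0.27 in SGC-like and −0.22 in myelinating Schwann-like cells, and of 0.074 in neuron-like and 0.44 in non-myelinating Schwann-like cells. At day 14 they were −0.58 in SGC-like and −0.43 in myelinating Schwann-like cells, against 0.31 in non-myelinating Schwann-like cells. The non-myelinating values turned negative when the class was drawn cell by cell (−0.16 and −0.34) and with the stricter cell filter (−0.45 and −0.38). With that filter the SGC-like value at day 7 was 0.021. Without Hmgcs1 the neuron-like ratio at day 7 was 0.02 (interval −0.01 to 0.06). The non-myelinating ratio at day 14 was then 0.22 (interval −0.05 to 0.48), and both intervals included 0.

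The regulators at day 7 were at −0.13 in SGC-like and 0.46 in non-myelinating Schwann-like cells. The fatty acid genes at day 14 were at 0.043 in SGC-like cells, against −0.11 in non-myelinating Schwann-like and −0.13 in neuron-like cells. The non-myelinating value was 0.13 when the class was drawn cell by cell, and the SGC-like value was −0.66 with the stricter cell filter.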

How the results depend on the processing

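The sterol sum of SGC-like cells stayed below naïve at day 14 in every alternative run, and at day 7 in every one but the stricter filter. No paired analysis was possible because no condition has a second library. Resolutions of 0.5 and 2, keeping doublets and leaving out the interferon clusters moved no sum by more than its counting interval. With a filter of 1000 genes and 10% mitochondrial UMIs, which left 123, 15 and 11 SGC-like cells, log2 ratios at day 7 and day 14 were 0.021 and −1.29 (sterol) and 0.044 and −0.66 (fatty acid) in SGC-like cells, −0.45 and −0.38 (sterol) and −0.090 and −0.54 (fatty acid) in non-myelinating Schwann-like cells and −0.0060 and −0.094 (fatty acid) in neuron-like cells, and the sterol ratio of myelinating Schwann-like cells at day 7 was −0.16. With classes drawn cell by cell, the sterol ratio was −0.51 at day 14 in SGC-like cells and −0.16 and −0.34 in non-myelinating Schwann-like cells, whose fatty acid ratio at day 14 was 0.13. Median-of-ratios scaling gave −0.053 (sterol) and −0.18 (fatty acid) at day 14 in neuron-like cells. The mean of single-cell CPM gave sterol ratios of −0.48 at day 14 in myelinating Schwann-like and −0.010 at day 7 in neuron-like cells, and fatty acid ratios of 0.027 and −0.044 in myelinating Schwann-like and −0.10 and −0.18 in neuron-like cells. Without mitochondrial and marker genes the sterol ratio of SGC-like cells at day 14 was −0.55 and the fatty acid ratios 0.095 and 0.076. With at most 15% mitochondrial UMIs they were −0.35 and −0.49 (sterol) and 0.11 and 0.10 (fatty acid), and −0.22 (fatty acid, day 14) in non-myelinating Schwann-like cells. The cause of these shifts was not tested.

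Counts of members past 1.5-fold moved with a minimum of 20 UMIs, to 5 higher at day 7 and 6 higher and 5 lower at day 14 in non-myelinating Schwann-like cells and 1 higher at day 7 in neuron-like cells. Median-of-ratios scaling gave 1 lower at day 14 in neuron-like cells. Classes drawn cell by cell gave 1 higher at day 14 in myelinating Schwann-like cells, and 0 higher and 4 lower at day 7 and 0 higher and 7 lower at day 14 in non-myelinating Schwann-like cells. For these settings the number of members tested and the share of all genes past the fold are not given. The counts are therefore not a result about the members. In the main setting 10.6% of genes were higher and 10.3% lower at day 14 in non-myelinating Schwann-like cells. Depth limits the non-myelinating class most, with 204 sterol UMIs in its naïve library.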

Other observations

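Cells that received no class name also carried the pathway. The unnamed cluster led by Pou3f1, a factor of promyelinating Schwann cells, and Egr3 (127, 70 and 109 cells) had a sterol sum of 1119 CPM in naïve, 951 CPM at day 7 and 708 CPM at day 14. Its first class by markers was SGC, with 2 markers present, below the minimum of 3. The SGC marker Ednrb was among its leading genes, as was Egr3, which also led the largest SGC-like cluster. The unnamed cluster led by Serpinb1a, Asns and Sprr1a held 10, 153 and 12 cells, most of them from the day 7 library, with 2710, 2699 and 1826 CPM. Its cells were shallow, with medians of 1237, 1380 and 1916 UMIs. Drawn cell by cell, neuron-like cells numbered 134, 238 and 162, against 121, 76 and 136 by cluster. Whether the added day 7 cells belong to this cluster was not tested.

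Vascular, fibroblast and macrophage classes had a low level of the sterol enzymes in all 3 libraries. Endothelial-like cells were at 321, 308 and 367 CPM, mural-like cells at 334, 234 and 264 CPM, fibroblast-like cells at 298, 308 and 409 CPM and macrophage-like cells at 343, 306 and 387 CPM, each at its own highest level at day 14 except mural-like cells. Day 14 log2 ratios were 0.46 (interval 0.11 to 0.82) in fibroblast-like and 0.19 (interval 0.04 to 0.35) in endothelial-like cells. Mural-like cells were at −0.51 (interval −0.88 to −0.14) at day 7 and −0.34 (interval −0.66 to −0.02) at day 14. Without Hmgcs1 the day 14 ratios were 0.27 (interval −0.11 to 0.67) in fibroblast-like and 0.14 (interval −0.03 to 0.30) in endothelial-like cells. Mural-like cells were then at −0.40 (interval −0.80 to 0.01) at day 7 and −0.35 (interval −0.71 to 0.01) at day 14. All of these intervals included 0. The macrophage-like intervals included 0 at both times.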
